A study of Mus musculus with 6 samples.

Results

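Meox1 and Meox2, the 2 mouse genes of the Meox homeobox family, were followed in whole embryonic kidneys labelled as controls or as carrying a nephron progenitor deletion of miR-17~92, a cluster of microRNA genes. They are 2 of the 13965 rows of the deposited expression table, found by their Ensembl identifiers (ENSMUSG00000001493 and ENSMUSG00000036144), and each has a row of its own that is joined with no other gene. Kidneys were taken at embryonic day 16, and RNA was sequenced in 6 libraries. The 3 control libraries are labelled as wild type with 1 floxed and 1 normal allele of the cluster (miR-17~92 flx/+), and the 3 mutant libraries as Six2-TGC, miR-17~92 flx/flx. Six2-TGC is a transgene that makes a GFP-Cre fusion protein under regulatory sequence of Six2, so recombination takes place in Six2-expressing progenitors and passes to the nephron cells that descend from them. Because Six2-TGC stands in the mutant label alone, what the transgene does and what loss of the cluster does cannot be told apart. Controls and mutants were littermates, with 1 library of each from every one of 3 litters, and the labels do not say how many embryos or kidneys went into a library. The 2 genes were selected on their low CPM in mutant relative to control kidneys in these same libraries, so their difference between the genotypes is described here and was not tested.

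The Meox proteins (also called Mox, and Gax for Meox2) are homeodomain transcription factors related to the Hox proteins. They are best known from somites, where the pair together is needed for the sclerotome and for normal axial skeleton and muscle. Meox2 is also known from limb muscle, vascular smooth muscle and endothelium, where it restrains proliferation. In the developing kidney both genes are used as markers of the cap mesenchyme, the pool of self-renewing nephron progenitors around each ureteric tip.

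Libraries held between 43804667 and 54913325 reads, and expression is given in CPM, the reads of a gene scaled to the size of its library, where 1 CPM is 43.8 to 54.9 reads. All 15 kidney marker genes of the list for this tissue were measured, from the podocyte gene Nphs1 to the collecting duct gene Aqp2. Their summed level was 1364 to 1470 CPM in controls and 1486 to 1651 CPM in mutants. Of the 15, 7 had a negative and 8 a positive log2 difference (mutant minus control). The proximal tubule gene Lrp2 alone averaged 332 CPM in controls and 479 CPM in mutants. The row of the targeted locus joins Mir17hg, the host transcript, with its microRNA genes. It stood at 34.1, 36.4 and 23.0 CPM in control libraries 1 to 3 and at 53.6, 39.8 and 44.6 CPM in mutant libraries 1 to 3, so this row is no check of the deletion. Across 13766 tested rows, limma called 77 (0.559%) at an adjusted p below 0.05 in a model of genotype alone, 27 of them lower (0.196%) and 50 higher (0.363%) in mutant kidneys. Paired by litter, it called 1574 rows (11.4%), 483 lower (3.51%) and 1091 higher (7.93%). These shares are the background for each count of genes called below. Some counts at an unadjusted limma p below 0.05 are given too. The share of all rows at that threshold was not computed, so those counts have no background here.

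The 2 genes lie on different chromosomes and share their homeobox. In GENCODE M21 (build GRCm38, while the submitters' notes name NCBIM37), Meox1 is at chr11:101877510-101894374 on the minus strand and Meox2 at chr12:37108540-37179534 on the plus strand. Each has 3 exons and 1 protein-coding transcript, of 2228 bases with 759 coding bases for Meox1 and of 2360 bases with 909 coding bases for Meox2. Their coding sequences were identical at 62.0% of 750 aligned positions. The stretch of 180 coding bases most alike in both genes, which lies largely in the homeobox, was identical at 77.8% of positions. Of the 40 positions that differ, 33 fell at the third base of a codon, 7 at the first and 0 at the second. No run of more than 12 identical bases occurs in both transcripts, so a read longer than that which matches one transcript exactly does not match the other.

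Meox1 was present in every kidney and lower in every mutant kidney. It stood at 14.5, 16.0 and 14.2 CPM in control libraries 1 to 3, from 637, 706 and 703 reads. In mutant libraries 1 to 3 it stood at 4.66, 4.90 and 4.86 CPM, from 225, 269 and 227 reads. The groups did not overlap, and the lowest control value was 2.90 times the highest mutant value. How many of all rows show no overlap was not counted. The controls averaged 14.9 ± 0.976 CPM (SD, n = 3) and the mutants 4.81 ± 0.130 CPM, so that 32.2% of the control level remained, a log2 difference of -1.54 (SE 0.12). The spread between mutant libraries, a coefficient of variation of 2.70%, was below the 6.47% that read counting alone would give at these depths, while that between controls (6.54%) was above their counting error of 3.83%.

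Meox2 differed more. It stood at 12.8, 12.6 and 10.6 CPM in control libraries 1 to 3 (561, 556 and 526 reads) and at 1.86, 1.42 and 2.01 CPM in mutant libraries 1 to 3 (90, 78 and 94 reads). Again the groups did not overlap, and the lowest control value was 5.28 times the highest mutant value. The means were 12.02 ± 1.21 CPM and 1.77 ± 0.309 CPM, 14.7% of the control level, with a log2 difference of -2.47 (SE 0.15). Both log2 differences are of log2(CPM + 0.5), which understates changes of low genes. The ratio of summed reads, each sum divided by the total reads of its group, was 0.323 for Meox1 (95% exact binomial interval 0.296 to 0.352) and 0.146 for Meox2 (0.128 to 0.166). These intervals cover counting error only. Ordered by log2 difference from the lowest, Meox2 was number 3 and Meox1 number 11 of the 13766 tested rows.

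**Figure D1:**
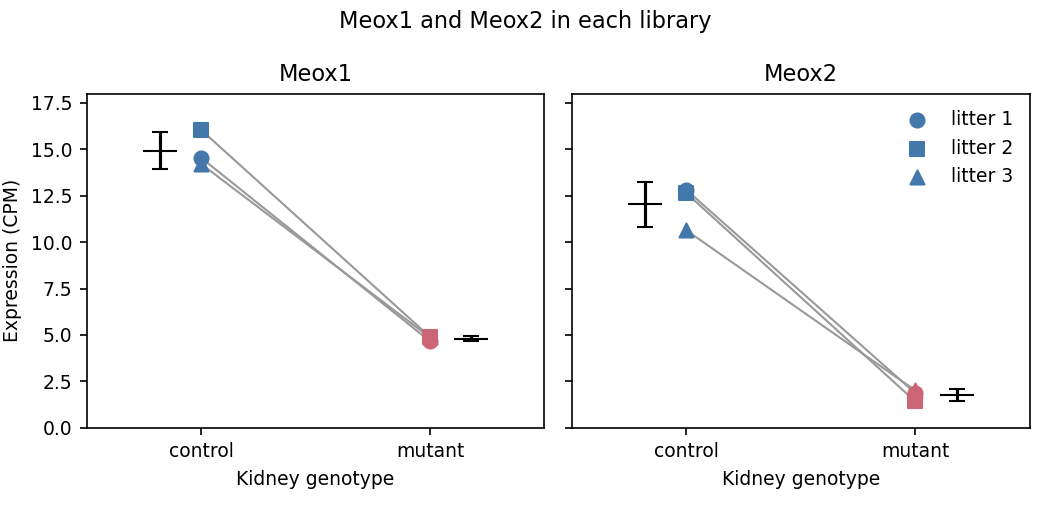
Expression in CPM (vertical axis) of Meox1 (left) and Meox2 (right) in control (blue) and mutant (red) kidneys. Circles, squares and triangles are litters 1, 2 and 3, grey lines join libraries of 1 litter, and black bars show the mean ± SD of 3 libraries. All 6 lines fall, from 14.2 CPM or more to 4.90 CPM or less for Meox1 and from 10.6 CPM or more to 2.01 CPM or less for Meox2.

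In bulk RNA from whole kidneys, fewer progenitors and less Meox RNA in each progenitor cannot be told apart. By litter, the mutant held 32.0%, 30.5% and 34.2% of its control littermate's Meox1 level in litters 1, 2 and 3. The counting intervals of these shares overlapped, the lowest starting at 26.4% and the highest ending at 39.8%. For Meox2 the shares were 14.5%, 11.2% and 18.9%. Here litters 2 and 3 differed by more than read counting, with intervals from 8.75% to 14.3% and from 15.0% to 23.6%. With 1 library of each genotype in a litter, this difference has no replicate.

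Per kilobase of transcript, Meox1 was the more abundant of the pair in every library. It stood at 6.53, 7.20 and 6.38 CPM per kilobase in control libraries 1 to 3, and Meox2 at 5.43, 5.35 and 4.51. In mutant libraries the levels were 2.09, 2.20 and 2.18 for Meox1 and 0.789, 0.602 and 0.853 for Meox2. Meox2 was thus at 83.1%, 74.3% and 70.6% of the Meox1 level in controls and at 37.8%, 27.4% and 39.1% in mutants. The balance between the genes differed between the genotypes without overlap. Both genes were selected on their low CPM in mutants, so this is a description and no test. The lowest interval of a control ratio started at 63.0% and the highest of a mutant ratio ended at 49.9%. These intervals cover counting error and not the spread between kidneys. Among all rows, Meox1 ranked above 32.4% of rows in control and 17.1% in mutant kidneys by mean CPM, and Meox2 above 29.1% and 7.10%.

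Set against Six2, the factor that maintains nephron progenitors, both Meox genes were lower in mutant kidneys as well. Six2 itself stood at 41.5, 56.1 and 54.2 CPM in control libraries 1 to 3 and at 31.1, 43.9 and 40.8 CPM in mutant libraries 1 to 3. Per kilobase, Meox1 was at 24.9% to 33.3% of the Six2 level in controls and at 10.6% to 14.3% in mutants. Meox2 was at 17.6% to 27.7% and at 2.91% to 5.38%. Neither ratio overlapped between the groups. The Meox genes were selected on their low CPM in mutants, so a lower ratio to Six2 follows largely from that choice. It is a description and no test.

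The 2 Meox genes were also set against 3 other genes of the progenitor list. Traf1 encodes a protein that relays signals of the TNF receptor family. Meox1 was at 127% to 139.7% of the Traf1 level per kilobase in controls and at 134% to 147% in mutants, and these ranges overlap. Meox2 was at 94.7% to 116% of Traf1 in controls and at 38.2% to 57.5% in mutants. Cited1, a transcriptional co-activator of the early cap mesenchyme, had a larger difference than Meox1. Meox1 was at 13.4% to 19.0% of the Cited1 level in controls and at 18.5% to 24.5% in mutants, with a small overlap. Meox2 was at 9.46% to 15.8% of Cited1 in controls and at 5.07% to 9.24% in mutants. Relative to Capn6, a member of the calpain family, Meox1 was at 10.2% to 11.2% in controls and 6.61% to 7.53% in mutants, and Meox2 at 7.34% to 8.52% and 2.06% to 2.94%. The genes of these ratios were picked with their levels known, and the ratios are given as a description.

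**Figure D2:**
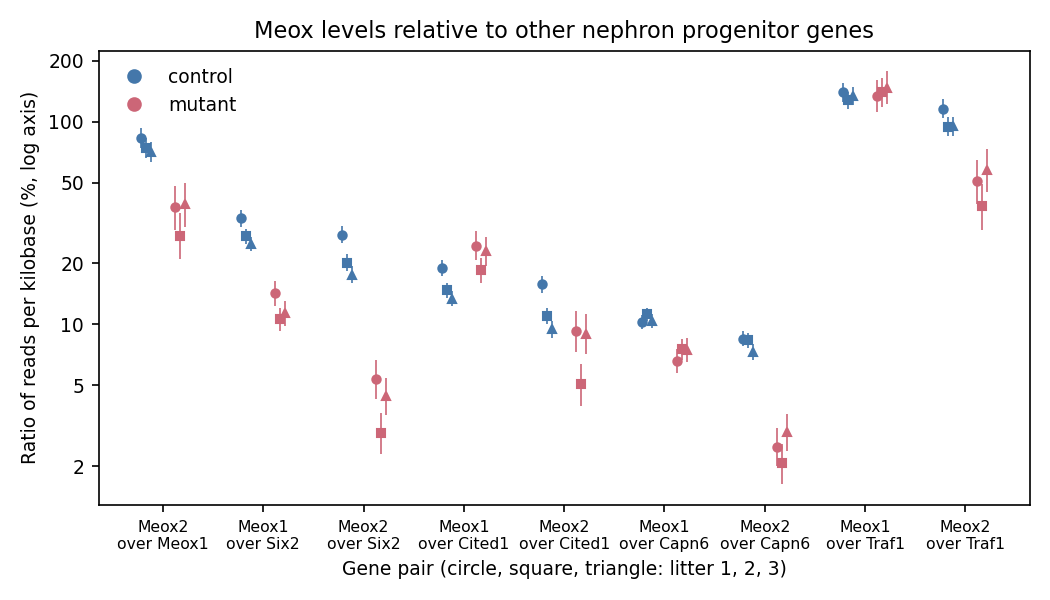
Ratio of reads per kilobase between 2 genes in each library, in percent on a log axis, for controls (blue) and mutants (red), with circles, squares and triangles for litters 1, 2 and 3. Bars are exact binomial 95% intervals. Meox2 over Meox1 is 70.6% or more in controls and 39.1% or less in mutants, while Meox1 over Traf1 overlaps between the groups.

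Other genes of nephron progenitors were lower in mutant kidneys, in part of a list of 28. The list was assembled with earlier results of these data known and leaves the Meox genes out. Its counts beside the shares of all rows are therefore a description and no test. Of 27 members measured, 5 fell (0.196% of all rows did), 1 rose (0.363% of all rows) and 21 did not pass in the model of genotype alone. Their summed level was 1821 to 1894 CPM in controls and 1447 to 1523 CPM in mutants. Cited1 fell from 47.5 ± 8.73 to 10.9 ± 1.87 CPM (log2 difference -2.07, SE 0.16, adjusted p = 0.000224). Traf1 (from 17.3 ± 1.88 to 5.28 ± 0.163 CPM), the clathrin assembly gene Snap91 (from 33.4 ± 3.51 to 11.4 ± 1.58 CPM) and Capn6 (from 286 ± 6.89 to 136 ± 6.51 CPM) fell too. The fifth was Phf19, a partner of Polycomb repressive complex 2, which fell from 35.4 ± 3.46 to 18.02 ± 1.48 CPM (log2 difference -0.96, adjusted p = 0.00506). The median log2 difference of the list was -0.20, against 0.01 over all tested rows. With any 1 library left out, 5 members were still called lower, but without litter 3, which leaves 2 libraries a group, 0 were called, when limma called 1 row lower over all rows.

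Paired by litter, 13 of these 27 genes fell (3.51% of all rows), 1 rose (7.93%) and 13 did not pass. Those that fell include Six2 (log2 difference -0.39, adjusted p = 0.354 for genotype alone and 0.00626 paired), Eya1, a co-activator that works with Six2 (-0.35, 0.227 and 0.00794), and Fgf9, a growth factor that keeps progenitors undifferentiated (-0.64, 0.113 and 0.0146). The member that rose, Fgf20, is the related growth factor made by the progenitors. It stood at 1.87, 1.82 and 1.68 CPM in control libraries 1 to 3 and at 3.44, 3.48 and 3.36 CPM in mutant libraries 1 to 3 (adjusted p = 0.0465). Without the block its call was lost with any 1 library left out (adjusted p = 0.0571 to 0.208). Gdnf, the ligand that draws the ureteric bud, and Itga8, an integrin of the cap mesenchyme, had log2 differences of 0.00 and 0.01. On the log2 scale, the difference of Meox2 lay below that of each of the 27 genes, and that of Meox1 between Traf1 (-1.61) and Snap91 (-1.52).

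**Figure D3:**
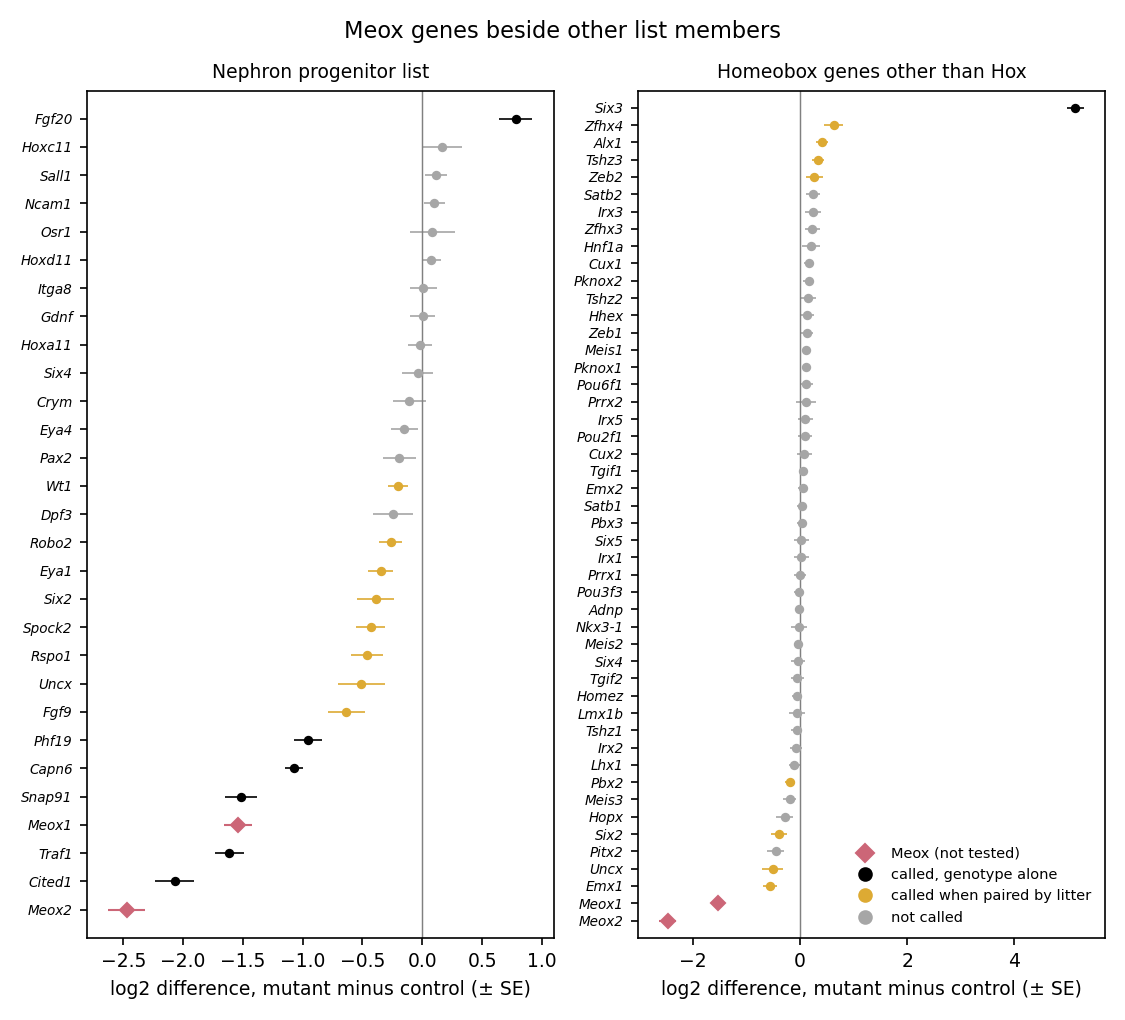
Log2 difference (mutant minus control, ± SE, horizontal axis) of tested genes of the nephron progenitor list (left) and of the homeobox list without Hox genes (right, not every gene drawn), with the Meox genes as red diamonds. Black marks genes called in the model of genotype alone, yellow those called only when paired by litter, and grey the others. Meox2 (-2.47) is the lowest point in both panels.

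Among the listed homeobox genes outside the Hox clusters, no tested gene was as far below its control level as the Meox genes. The Meox genes were selected for this difference. Of 79 homeobox genes outside the Hox clusters that were listed, 48 were tested. In the model of genotype alone 0 were lower (0.196% of all rows) and 1 was higher (0.363% of all rows), Six3, while at an unadjusted limma p below 0.05 there were 4 lower and 5 higher. For the 4 and 5 no share of all rows was computed. Six3, a relative of Six2 best known from forebrain and eye, had 0, 2 and 0 reads in controls and 738, 1104 and 823 in mutants. It was called in each of the 13 alternatives in which it passed the filter. The log2 differences of the 48 ran from -0.56 to 5.13 with a median of 0.06, against 0.01 over all rows, so that both Meox genes lay below the lowest.

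Paired by litter, 4 of the 48 homeobox genes were lower (3.51% of all rows) and 7 higher (7.93% of all rows). The 4 were Emx1, Uncx, Six2 and Pbx2, of which Uncx and Six2 are also on the progenitor list. Emx1, a factor of the developing forebrain, stood at 7.74 ± 0.626 CPM in controls and 5.09 ± 0.296 CPM in mutants (log2 difference -0.56, adjusted p = 0.0995, 0.0137 paired). Uncx, a paired-type factor of the posterior somite, had a log2 difference of -0.51 (0.346, 0.00455 paired). On the other side were Zfhx4, a large zinc finger and homeobox factor (1.24 ± 0.122 CPM in controls, 2.21 ± 0.425 CPM in mutants, adjusted p = 0.178, 0.0499 paired), and Alx1, a factor of craniofacial mesenchyme (18.8 ± 1.09 and 25.2 ± 2.64 CPM, 0.179, 0.0142 paired). Pbx2, of a family that binds DNA together with Hox-like partners, averaged 124 ± 9.01 CPM in controls and 109 ± 7.94 CPM in mutants (0.476, 0.0278 paired). With median-ratio scaling and the block, 4 homeobox genes were lower and 4 higher.

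Of 8 genes listed as reported partners or targets of the Meox factors, 4 were measured, and 0 were called for genotype alone, where 0.559% of all rows were, with 1 lower and 2 higher at an unadjusted limma p below 0.05. For these unadjusted counts no share of all rows was computed. Paired by litter 1 was lower, Uncx (3.51% of all rows were), and 1 higher, Cdkn1a (7.93% of all rows). Uncx is also on the progenitor, homeobox and somite lists, so the same paired call is counted in each. Uncx and Tbx18 depend on Meox genes in somites. Uncx stood at 24.1, 37.4 and 31.1 CPM in control libraries 1 to 3 and at 15.9, 26.3 and 22.6 CPM in mutant libraries 1 to 3. It was lower than its littermate in 3 of 3 litters, and the groups overlapped. Tbx18 went the other way, with controls at 5.35 ± 1.11 CPM and mutants at 7.18 ± 0.627 CPM (log2 difference 0.41, adjusted p = 0.364, 0.0946 paired). Cdkn1a, the cell cycle inhibitor p21 that Meox2 can induce in vascular cells, stood at 20.6 ± 3.13 and 26.5 ± 4.23 CPM (0.35, 0.402, 0.0453 paired). Rnf10, a RING finger protein that binds Meox2, had a log2 difference of -0.02. Pax1, Pax3, Nkx3-2 and Cdkn2a were not analysed here, because no row carried their identifiers.

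Both immediate neighbours of Meox1 on chromosome 11 stood lower in mutant kidneys. The 3 nearest protein-coding genes on each side of each Meox gene were taken from RefSeq's GRCm38.p6 gene order, and 9 of these 12 were measured. Etv4, an ETS factor of ureteric tips and nephron progenitors, stood at 96.3, 118 and 99.4 CPM in control libraries 1 to 3 and at 71.9, 79.9 and 72.5 CPM in mutant libraries 1 to 3. Its log2 difference was -0.48 (SE 0.10) with an adjusted p of 0.0749, and of 0.00208 paired. Sost, the secreted Wnt antagonist sclerostin, stood at 2.58, 2.09 and 2.22 CPM in controls and 1.57, 0.783 and 1.07 CPM in mutants 1 to 3 (-0.79, SE 0.20, adjusted p = 0.135, 0.0187 paired). For both genes the groups did not overlap. With 3 against 3 libraries this has a probability of 0.1 by order alone, and the share of all rows without overlap was not counted. Over the alternatives the adjusted p ran from 0.00208 to 0.685 for Etv4 and from 0.0187 to 0.774 for Sost. Further out, the helicase gene Dhx8, the small GTPase gene Arl4d and the phosphatase gene Dusp3 had log2 differences of 0.09, 0.21 and -0.04, with adjusted p values of 0.788, 0.681 and 0.927.

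Around Meox2 on chromosome 12 no measured neighbour passed in either model. Sostdc1, a secreted antagonist related to sclerostin, averaged 53.5 ± 4.58 CPM in controls and 45.1 ± 2.82 CPM in mutants (-0.24, adjusted p = 0.388, 0.0830 paired). Etv1, an ETS factor related to Etv4, stood at 17.2 ± 2.87 and 13.0 ± 2.99 CPM (-0.40, 0.435, 0.0929 paired), and of the alternatives it passed only the fit that combined the block with removal of the length and GC trend (0.0457). The kinase gene Dgkb had a log2 difference of 0.40. In all, 0 of 9 neighbours were called for genotype alone (4 were lower at an unadjusted limma p below 0.05), and 2 of 9 were lower paired by litter, beside 3.51% of all rows. For the count of 4 no share of all rows was computed. Sost, Etv4, Etv1 and Sostdc1 had log2 differences of -0.79 to -0.24, and Dusp3 of -0.04. Dhx8, Arl4d and Dgkb went the other way, with 0.09 to 0.40. All of these were smaller in size than those of the Meox genes.

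**Figure D4:**
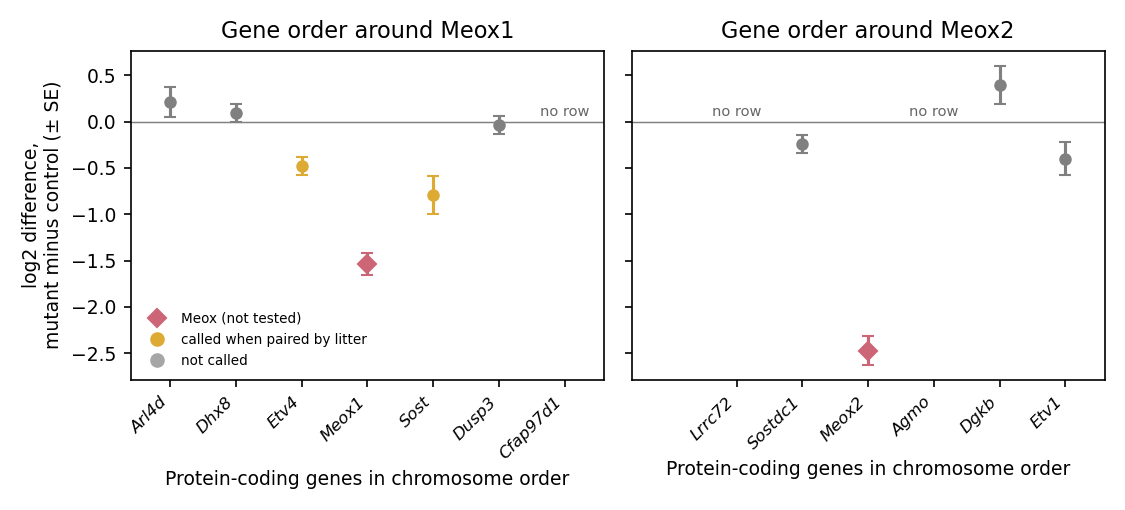
Log2 difference (mutant minus control, ± SE, vertical axis) of Meox1 (left) and Meox2 (right, red diamonds) and of neighbouring protein-coding genes, in chromosome order (not every neighbour is drawn). Yellow points passed when paired by litter, grey points did not, and genes without a measured row are marked. Etv4 (-0.48) and Sost (-0.79), the neighbours of Meox1, are the yellow points.

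MicroRNAs lower the levels of transcripts that carry matches to their seed, bases 2 to 8, mainly in the 3' untranslated region. The mature microRNAs of the cluster are shown as RefSeq gives them (GRCm38.p6, chromosome 14, plus strand), with the seed in capitals, since the seeds define 4 families.
mmu-miR-17-5p: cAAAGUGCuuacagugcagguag
mmu-miR-20a-5p: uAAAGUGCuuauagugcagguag
mmu-miR-18a-5p: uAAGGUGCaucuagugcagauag
mmu-miR-19a-3p: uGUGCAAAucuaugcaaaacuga
mmu-miR-19b-3p: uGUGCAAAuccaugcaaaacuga
mmu-miR-92a-3p: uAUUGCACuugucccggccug
The 3' untranslated regions of Meox1 (1097 bases) and Meox2 (1157 bases) in GENCODE M21 were searched on the transcript strand for the 7 bases that pair with each seed. Neither held GCACTTT (miR-17 and miR-20a), GCACCTT (miR-18a), TTTGCAC (miR-19a and miR-19b) or GTGCAAT (miR-92a). Among 3049 genes with a 3' untranslated region of 900 to 1400 bases, 9.77%, 6.36%, 11.6% and 5.28% held them, in that order. Other kinds of site were not searched.

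The promoter table holds Meox2 and not Meox1. In the 300 bases around the Meox2 start, 4 motifs were searched on both strands. The homeodomain core TAAT occurred 1 time (58.3% of 27025 promoters of this length hold it), and TATAA occurred 2 times (25.5% of promoters). The consensus of MEF2, a factor of muscle and mesenchyme, matched 1 stretch, read on both strands, from 32 to 23 bases before the start (3.26% of promoters), which overlaps the TATAA matches. TCAGGTTTC, the MEF3 motif, bound by Six2 and its relatives, had no match (0.440% of promoters). The stretch around the MEF2 match, in capitals, is shown for RefSeq's GRCm38.p6, chr12:37108483-37108542, plus strand.
Meox2 promoter: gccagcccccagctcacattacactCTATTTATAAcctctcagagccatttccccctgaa
A match of letters is no evidence that a factor binds there.

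The rows most like each Meox gene over the 6 libraries were ranked by Pearson's r on log2(CPM + 0.5), among 13694 other rows with a mean of at least 1 CPM. Because 3 libraries of each genotype enter, a high r follows mainly from 2 tight groups, and no p is given. Closest to Meox1 were Traf1 (r = 0.998), the ion pump regulator gene Fxyd6 (0.997), the ubiquitin ligase substrate receptor gene Klhdc2 (0.997), Siglecg, a lectin best known from B cells (0.994), and Capn6 (0.994). Closest to Meox2 were the ribosomal protein gene Rps4x (0.997), Capn6 (0.994), the heparan sulfate sulfotransferase gene Hs3st3a1 (0.993), the replication factor gene Rfc5 (0.992) and Klhdc2 (0.991). Their log2 differences covered a wide range, from -2.78 for Siglecg to -0.11 for Rfc5. Siglecg had 154, 217 and 151 reads in controls and 8, 9 and 2 in mutants. Meox1 and Meox2 had an r of 0.992 with each other over the same 6 libraries. Within the 3 controls their r was 0.595 and within the 3 mutants -0.421, so the 0.992 mainly reflects the difference for which both were selected.

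Markers of other cells known for Meox expression gave few calls for genotype alone. Over all rows, 0.559% were called in that model, and paired by litter 3.51% were lower and 7.93% higher. Counts at an unadjusted p have no such share beside them. Of 20 skeletal muscle markers 6 were measured, and Myod1, Myf5, Myog, Pax3 and Pax7, which define muscle precursors, were not analysed here because no row carried them. The summed level of the 6 was 63.9 to 73.5 CPM in controls and 57.5 to 79.0 CPM in mutants, and 0 were called (1 at an unadjusted limma p below 0.05). Paired by litter 1 was lower, the fast myosin light chain gene Mylpf (1.77 ± 0.342 and 0.861 ± 0.0429 CPM, adjusted p = 0.112, 0.0304 paired). Of 9 somite genes 6 were measured, with a sum of 107 to 140 CPM in controls and 102 to 128 CPM in mutants. Of these 0 were called (3 at an unadjusted p below 0.05), or 2 lower when paired, Uncx and the tendon factor gene Scx (6.23 ± 0.970 and 4.25 ± 1.12 CPM, 0.316, 0.0341 paired). Smooth muscle genes, all 7 measured, were called in neither model, and 0 had an unadjusted p below 0.05 for genotype alone. Their sum was 486 to 560 CPM in controls and 542 to 608 CPM in mutants.

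The summed levels of endothelial and of stromal genes lay higher in every mutant library than in any control. For 3 against 3 libraries a split without overlap has a probability of 0.1 by order alone. The share of all rows without overlap was not counted. The summed kidney markers lay higher in every mutant library too (1364 to 1470 CPM in controls and 1486 to 1651 CPM in mutants). This sum does not describe the kidney markers in general. Their log2 differences were negative for 7 and positive for 8, with a median of 0.01. Lrp2 alone averaged 332 CPM in controls and 479 CPM in mutants. A negative log2 difference was found for 2 of 10 endothelial and 1 of 14 stromal genes. The 10 endothelial genes summed to 1152 to 1164 CPM in controls and 1274 to 1306 CPM in mutants. For genotype alone 0 were called (3 higher at an unadjusted limma p below 0.05), and 5 were higher when paired (7.93% of all rows were). No share of all rows was computed for the unadjusted counts here and among the kidney markers below. The 5 were Kdr, the main receptor for VEGF (log2 difference 0.33, adjusted p = 0.106, 0.00651 paired), Cdh5, Tek, Tie1 and Flt1, with log2 differences of 0.28, 0.25, 0.22 and 0.20. The 14 stromal genes summed to 3242 to 3317 CPM in controls and 3641 to 4330 CPM in mutants. The largest part of this sum was the collagen gene Col3a1, called in neither model (1637 ± 92.9 CPM in controls, 1927 ± 223 CPM in mutants). For genotype alone 3 were higher (0.363% of all rows were), and 6 were higher when paired (7.93% of all rows). Fat4, a protocadherin through which stroma signals to progenitors, rose from 78.9 ± 5.51 to 136 ± 8.52 CPM (adjusted p = 0.00456). The netrin gene Ntn1 (0.68) and the growth factor receptor gene Pdgfra (0.51) rose too, and Aldh1a2, Postn and Foxd1 passed when paired. Pdgfra (adjusted p = 0.0381) lost its call in 8 of 19 alternatives: with the length and GC trend removed (0.0568), without litter 2 or 3, and in 5 of 6 fits that leave out 1 library, control library 1 being the exception (0.00907 to 0.148 over the 6). Fat4 and Ntn1 lost theirs in 2 of 19, without litter 2 or 3. Among the 15 kidney markers 0 were called (2 lower and 2 higher at an unadjusted p below 0.05). When paired, 2 were lower (3.51% of all rows were), Nphs1 (-0.26) and Wt1 (-0.20). Another 4 were higher (7.93% of all rows), among them the proximal tubule receptor gene Lrp2 (0.52), Foxd1 (0.31) and Ret (0.29). The part of these cells in the Meox difference was not tested.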

How the data were processed

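The authors deposited 1 table of CPM, in which the reads of a gene are scaled to the reads of its library. TopHat2 2.0.9, Picard, SAMtools and build NCBIM37 are named in the submitters' processing notes, and the counter, annotation, strand setting and low-count filter are not given in the sources used here. From the spacing of low values a total was recovered for each library, with which all values convert to whole reads (tolerance 0.001). The listed rows leave out 0.105% to 0.117% of each total. Symbols from GENCODE M21 matched 13695 rows, and 526 rows join several genes.

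A row was tested where 3 or more libraries reached 1 CPM. Groups were compared with limma 3.58.1 (R 4.3.3) on log2(CPM + 0.5) with a mean-variance trend. Adjusted p values are Benjamini-Hochberg values over all 13766 rows. The fit was tested on simulated data. The main model held genotype alone. Litter, which the labels give, was the block of an alternative: deviations of control and mutant littermates correlated at 0.619, 0.446 and 0.312 across rows. The labels do not say that libraries are separate animals, so p values measure the spread between these libraries, which may be partly technical. Transcript length is that of the longest GENCODE transcript. Sequences were compared with Biopython 1.88. The members and gene lists were chosen with earlier results of these data known. Genes were named by a set rule: both Meox genes, their neighbours and reported partners, members of each list called in either model, at most 6 by size, Six2, Cited1, Mir17hg, and the 5 rows most like each Meox gene. Eya1, Fgf9, Gdnf, Itga8 and Pbx2 were named after their values were seen. Some genes that the rule names, and 1 sequence, are not reported here or drawn.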

Additional observations from a re-analysis of the deposited data

How the results depend on the processing

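Both Meox genes were lower in mutant kidneys under all 19 alternatives run. The log2 difference of Meox1 was -1.61 with a pseudocount of 0.1 and -1.45 with 1, and that of Meox2 -2.71 and -2.24. With 1 library left out it ran from -1.57 to -1.49 for Meox1 and from -2.55 to -2.36 for Meox2. The replicate block, with 1 library of each genotype in every litter, and the filters on low values cannot change these differences. Under them the values stayed at -1.54 and -2.47 by design, while the block moved the counts of calls. Lower and higher calls over all rows were 483 and 1091 with the block, 593 and 908 with the block and median-ratio scaling (added after the data were seen), 75 and 108 with the length and GC trend removed, and 440 and 431 with that and the block. Higher calls were 33 with a filter of 5 CPM. The calls were 6 and 0 without litter 2 and 1 and 0 without litter 3. With 1 library left out, lower calls ran from 13 to 33 and higher calls from 7 to 67.

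Among progenitor genes, lower calls were 9 with the length and GC trend removed, 13 in each of the 3 fits with the block and 0 without litter 3, and 5 with any 1 library left out. Higher calls were 0 with a pseudocount of 0.1, with the 5 CPM filter, with either scaling, and with any 1 library or litter left out. Lower calls among homeobox genes were 4 in each fit with the block. Higher ones were 7 with the block, 4 with the block and median-ratio scaling, 3 with the length and GC trend removed and the block, 2 with that trend removed alone, 0 with any 1 litter left out and 0 to 1 with 1 library left out. Six3 did not reach the filter where a mutant library was left out. Of partners and targets 1 was lower in each fit with the block, and 1 higher with the block, with or without the length and GC trend. Neighbours called lower were 2 with the block, also with median-ratio scaling, 1 with the length and GC trend removed and 3 with that and the block. The share of calls that were higher was 64.9% for genotype alone, 69.3% with the block, 60.5% with the block and median-ratio scaling and 49.5% with the length and GC trend removed and the block. With 1 library left out it ran from 31.8% (without mutant library 3) to 67.0%, with 38.2% without mutant library 2, and it was 0% without litter 2 or litter 3. The cause of these moves was not tested. Of the values of single genes, 673 kept their side of the threshold, 64 newly passed and 30 no longer passed. Direction reversed for 0 values with a call in either fit. A change of sign without a call was counted as kept, as for Dusp3 (-0.04 in the main fit, 0.02 without mutant library 1). The planned count models were not run. Meox2 rests on 78 to 94 reads in each mutant library, which limits its precision.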
